A study of Phaseolus vulgaris with 21 samples.

Results

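The transcripts described here are 45 WRKY and NAC transcription factors of common bean (Phaseolus vulgaris), 21 WRKY and 24 NAC, out of 6359 transcripts in the deposited expression table. A transcript was taken where the first entry of its Arabidopsis description named WRKY, a NAC domain or NAC (No Apical Meristem), and no measured value entered that choice. The table holds bean reads assigned to soybean transcripts. Symbols such as WRKY10 or NAC15 are therefore soybean names and not Arabidopsis numbers, and each is given here with the Arabidopsis locus that the table pairs with it. Several soybean copies can draw on the same bean reads, so values of members that match the same locus are uncertain as separate measurements. Transcript lengths are not used here, so levels are compared between tissues and not between genes. A further 6 transcripts name either family only in another entry and are not members: NAC22, WRKY48, LOC100792164, NAC23, NAC1 and LOC100815663.

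All tissues came from the cultivar Blue Lake 274, with 3 libraries each. Floral nectaries (FN), the nectar glands of the flower, were taken at 4 stages: pre1 lay 24 h before anthesis and pre2 12 h before it, the secretory stage was open flowers 3 h past dawn, and post followed it by 12 h. Extrafloral nectaries (EFN), which secrete nectar outside the flower, were taken on the stem at the base of lateral trifoliate leaves (stem EFN) and at the base of terminal ones (leaf EFN), and leaf was the non-secreting tissue. Nectaries were dissected by hand, and the labels give no hour for the EFN and leaf harvests. The labels count pre1 and pre2 back from anthesis and give no hour for them. If anthesis is taken as the secretory harvest, consecutive stages lie 12 h apart, stage and time of day cannot be told apart between neighbours, and secretory against pre1 and post against pre2 span 24 h. These 2 wider comparisons were added after the data were seen. Nothing in the labels says that libraries of a tissue came from separate plants, so p-values measure only the spread between these libraries, which may be technical.

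WRKY proteins are plant transcription factors that bind the W box of defence and senescence genes, and many are switched on within a short time of a pathogen signal or wounding, downstream of MAP kinases. NAC proteins, named after NAM, ATAF and CUC, include regulators of organ boundaries, of secondary wall and xylem formation, and of leaf and petal senescence. Members of both families answer abscisic acid, jasmonate and salicylic acid, and in flowers they act in the ageing of organs after opening.

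Values are the authors' upper-quartile normalized values, rounded to whole numbers. Their sums per library ran between 2616502 and 4270943, and read depth per library is not known from them. Correlations of log2 values between libraries of a tissue lay between 0.9385 and 0.9858, the lowest in stem EFN. The bean transcript matched to CRABS CLAW, the YABBY factor required for nectaries in Arabidopsis, averaged 6571, 1825, 497 and 465 in pre1, pre2, secretory and post FN and was listed at 0 in every EFN and leaf library. The 3 matched carpel and ovule transcripts summed to between 2019 and 5969 in FN libraries, against 2 to 24 in EFN and leaf libraries. Fewer cells of a type and less RNA per cell cannot be told apart in these bulk tissues.

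As a share of all values in a library, the 24 NAC members summed to 0.284% ± 0.042 in pre1, 0.398% ± 0.016 in pre2, 0.703% ± 0.03 in secretory and 0.872% ± 0.18 in post FN, against 0.286% in stem EFN, 0.309% in leaf EFN and 0.253% in leaf (means, SD, n = 3 each). The 21 WRKY members summed to 0.153%, 0.189%, 0.199% and 0.199% over the same floral stages, against 0.135% in stem EFN, 0.18% in leaf EFN and 0.0974% in leaf. A floral stage held the highest of the 7 tissue means for 21 of 24 NAC members (87.5%) and 16 of 21 WRKY members (76.2%), beside 61.0% of all transcripts. Post FN alone was the highest tissue for 10 NAC members (41.7%) and 4 WRKY members (19.0%), beside 18.2% of all transcripts. Library 1 of secretory FN is the only library with no value of 0, so a transcript with no value there is not in the table, which bears on every such share.

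**Figure D1:**
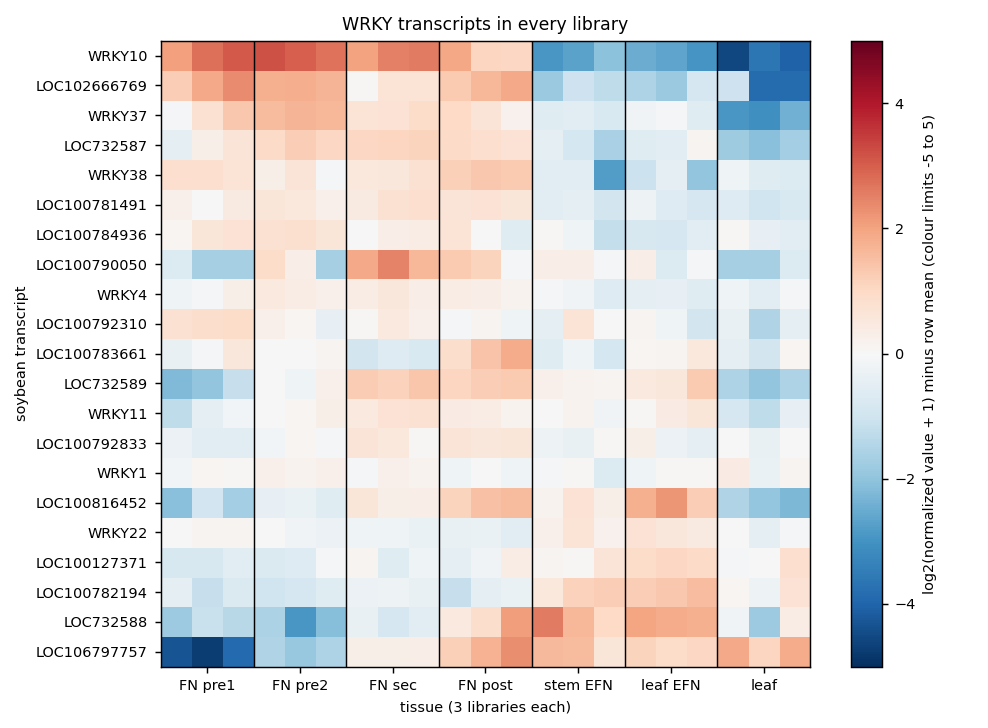
Each row is one of the 21 WRKY transcripts and each column one library, in groups of 3 per tissue; colour gives log2(normalized value + 1) minus the transcript's mean over all 21 libraries. WRKY10 at the top is above its mean in every floral library, and LOC106797757 at the bottom is below its mean in pre1 and pre2.

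**Figure D2:**
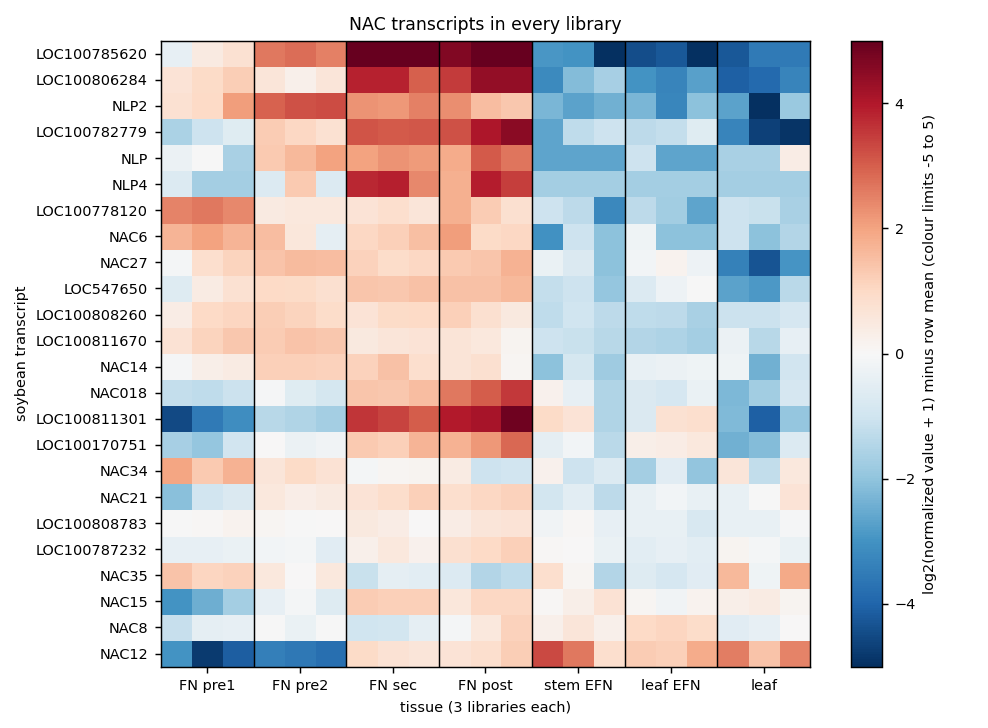
The same plot for the 24 NAC transcripts, with colours limited at -5 and 5. Most rows are above their mean in secretory and post floral nectaries. NAC12 at the bottom is below its mean in pre1 and pre2 and above it in all other tissues.

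Differences between tissues were tested with limma on log2(value + 1) over all 21 libraries, with Benjamini-Hochberg adjustment over the 6351 transcripts with a mean of at least 1, and a transcript is called higher or lower where the two-sided adjusted p is below 0.05. All 45 members passed that minimum. Fold changes are on the log2(value + 1) scale, which understates the change of low transcripts, and each error is the fit's SE.

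Nectaries were first compared with leaf. The FN side takes in stages before and after secretion, so a difference from leaf cannot be read as a mark of secretion. In EFN, 11 of 21 WRKY members were higher than in leaf and 0 were lower, while 8 of 24 NAC members were higher and 4 lower. That is 52.4% of WRKY and 50% of NAC members called, beside 47.4% of all transcripts (28.9% higher and 18.5% lower). In FN, taken as the mean of the 4 stages, 14 WRKY members were higher and 3 lower, and 17 NAC members were higher and 3 lower, beside 75.8% of all transcripts called (48.0% higher and 27.8% lower). The table holds only transcripts with a value in library 1 of secretory FN, which bears on these counts as well. The median log2 difference from leaf was 0.68 for WRKY and -0.08 for NAC members in EFN, beside 0.13 for all transcripts, and 0.96 and 2.28 in FN, beside 0.38. The share of all called transcripts that were higher in FN was 63.4%, 53.8% after rescaling libraries by median ratios and 49.2% after equalising their upper quartiles. Under those rescalings the WRKY split in FN was 12 higher and 4 lower, and 11 and 5, and the NAC split was 16 and 3 under both. In EFN the share of higher calls was 61.1%, 50.8% and 52.9% under these scalings, the WRKY split stayed at 11 and 0, and the NAC split was 8 and 6, and 8 and 5.

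WRKY10 is the WRKY member with the highest mean over the libraries, and of all members the one with the smallest adjusted p between FN and leaf. It matches AT4G01250, WRKY22 of Arabidopsis, a factor of defence signalling and dark-induced senescence. Its values were 1181, 1901 and 2376 in pre1, 2556, 2217 and 1865 in pre2, 1151, 1639 and 1699 in secretory and 1066, 599 and 572 in post FN. They were 37, 43 and 67 in stem EFN and 50, 44 and 36 in leaf EFN, against 11, 22 and 16 in leaf. No FN library overlapped an EFN library, and no EFN library overlapped leaf. The log2 difference from leaf was 6.41 ± 0.237 in FN (limma adjusted p = 1.05e-14) and 1.46 ± 0.26 in EFN (adjusted p = 0.000147).

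WRKY37, LOC732587, WRKY11 and LOC732589 all list AT4G31550, WRKY11, among their matches. The first 3 list it first, and LOC732589 lists WRKY7 before it. These are group IId factors, which carry a calmodulin-binding stretch, and Arabidopsis WRKY11 restrains basal resistance. All 4 were higher than leaf in both kinds of nectary, beside 48.0% of all transcripts in FN and 28.9% in EFN. WRKY37 had 443 to 1545 in the 12 FN libraries, with a median of 862.5, and 279 to 454 in the 6 EFN libraries, with a median of 327, against 62, 57 and 90 in leaf. Its log2 difference from leaf was 3.72 ± 0.216 in FN (limma adjusted p = 8.61e-12) and 2.34 ± 0.237 in EFN (adjusted p = 3.19e-07). LOC732587 averaged 880 to 1039 in pre2, secretory and post FN and 576 ± 199 in pre1, with 262 ± 99.6 in stem EFN and 400 ± 122 in leaf EFN, against 136 ± 18.7 in leaf (SD, n = 3 each). Its log2 difference was 2.64 ± 0.212 in FN (limma adjusted p = 9.9e-10) and 1.20 ± 0.232 in EFN (adjusted p = 0.000353). LOC732589 differed from leaf by 1.85 in FN and by 2.16 in EFN, and WRKY11 by 0.96 and 1.01. How far these 4 share bean reads was not tested. Values by floral stage are given below for WRKY37, LOC732589 and WRKY11.

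LOC100816452, matched to WRKY23, an auxin-responsive factor known from nematode feeding sites, had the largest log2 difference of the WRKY members between EFN and leaf. It had 196, 290 and 217 in stem EFN and 606, 812 and 414 in leaf EFN, against 61, 45 and 36 in leaf. The difference was 2.97 ± 0.241 in EFN (limma adjusted p = 1.94e-08) and 1.84 ± 0.22 in FN (adjusted p = 3.08e-07). LOC732588, matched to the pathogen-induced repressor WRKY40, was higher in EFN and not called in FN. It had 368, 190 and 121 in stem EFN and 237, 218 and 207 in leaf EFN, against 53, 16 and 77 in leaf, a log2 difference of 2.36 ± 0.437 (limma adjusted p = 0.000225). WRKY22, which matches WRKY21 of group IId, behaved likewise with an EFN difference of 0.68 (adjusted p = 0.000401) and an FN difference of 0.01 that became -0.26 and -0.39 and was called lower when libraries were rescaled.

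The 3 WRKY members lower in FN than in leaf match WRKY33, WRKY32 and WRKY17. LOC106797757, annotated as a non-coding RNA and matched to WRKY33, the factor behind camalexin and resistance to necrotrophic fungi, had 8 to 1194 in the FN libraries with a median of 186, against 891, 496 and 871 in leaf. Its FN mean stands for stages that differ widely: in pre1 all 3 libraries were at or under 15, and in post FN they overlapped leaf. The log2 difference was -2.59 ± 0.236 (limma adjusted p = 6.59e-09). LOC100782194, matched to WRKY32, had 49 to 92 in FN and 162 to 328 in EFN, against a mean of 132 ± 45.2 in leaf. It was lower in FN, at a log2 difference of -0.83 ± 0.209 (adjusted p = 0.00134) and higher in EFN by 0.98 ± 0.228 (adjusted p = 0.00171). LOC100127371, matched to WRKY17, was lower in FN, at a log2 difference of -0.62 (limma adjusted p = 0.0211), and that call was lost without leaf library 3 (adjusted p = 0.24).

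Among NAC members, NAC27 was higher than leaf in both kinds of nectary. It matches AT3G15500, ANAC055, a factor of jasmonate and abscisic acid responses and of senescence. Its values were 1228, 2352 and 2824 in pre1, 3519, 3959 and 3864 in pre2, 2919, 2491 and 2739 in secretory and 3306, 3444 and 4450 in post FN. They were 1039, 804 and 319 in stem EFN and 1190, 1481 and 1110 in leaf EFN, against 126, 66 and 169 in leaf. No nectary library overlapped leaf, and stem EFN library 3 was the lowest of the nectary libraries. The log2 difference from leaf was 4.71 ± 0.291 in FN (limma adjusted p = 2.1e-11) and 2.99 ± 0.319 in EFN (adjusted p = 5.67e-07). LOC100811301 matches the same locus and had 2, 5 and 7 in pre1 FN. Sharing of bean reads between it and NAC27 was not tested.

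LOC100782779 and LOC100806284 had large floral differences and smaller extrafloral ones. LOC100782779 matches SND3, a NAC factor tied to secondary wall formation, and had 58 to 4060 in FN with a median of 959 and 28 to 116 in EFN with a median of 74.5, against 17, 6 and 5 in leaf. Its log2 difference was 6.03 ± 0.335 in FN (limma adjusted p = 4.18e-12) and 2.95 ± 0.367 in EFN (adjusted p = 3.4e-06). LOC100806284 matches AT4G28530, NAC074, and had 139 to 2456 in FN with a median of 602 and 11 to 36 in EFN with a median of 15.5, against 6, 7 and 11 in leaf. The FN difference was 6.02 ± 0.271 (adjusted p = 1.92e-13). The EFN difference of 1.08 (adjusted p = 0.0059) rests on values near the lower end of the scale and was lost when only the libraries compared were fitted.

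All 4 NAC members matched to NAC100 were called higher in FN than in leaf, beside 48.0% of all transcripts, though NLP had low values throughout. AT5G61430, NAC100, is a target of miR164 in Arabidopsis, as are the organ boundary genes CUC1 and CUC2. LOC100785620 had 112 to 5957 in FN with a median of 2382.5, against 19, 18 and 0 in stem EFN, 6, 7 and 2 in leaf EFN and 7, 12 and 12 in leaf. Its log2 difference from leaf was 7.00 ± 0.575 in FN (limma adjusted p = 1.41e-09), and the EFN difference was not called. NLP2 had 98 to 556 in FN and 5 to 13 in EFN, against a mean of 7.67 ± 7.51 in leaf, with an FN difference of 5.58 (adjusted p = 7.98e-09). LOC547650 averaged 274 to 651 over the floral stages, with 89 ± 27.6 in stem EFN and 184 ± 39.7 in leaf EFN, against 51 ± 32.1 in leaf, and was higher in FN by 3.30 and in EFN by 1.44. NLP reached 50 in FN, with 0 to 2 in EFN, against 1 to 7 in leaf. Its EFN call of -1.40 (limma adjusted p = 0.0241) was lost without leaf EFN library 2 or leaf library 3 (adjusted p = 0.0512 and 0.228). NLP4, matched to NAC020, was listed at 0 in every EFN and leaf library and had 0 to 48 in FN, so it met the minimum mean through FN values alone.

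LOC100811670 moved one way in the flower and the other way outside it. It matches ANAC056 (NARS1) and, further down, NAM (NARS2), which act in the seed coat of Arabidopsis. It had 1653 to 4002 in FN with a median of 2464.5 and 464 to 731 in EFN with a median of 560.5, against a mean of 981 ± 352 in leaf. It was higher in FN by 1.55 ± 0.18 (limma adjusted p = 1.97e-07) and lower in EFN, at a log2 difference of -0.68 ± 0.197 (adjusted p = 0.00863). The EFN call was lost without leaf library 1 or 3 (adjusted p = 0.0594 to 0.0857).

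The NAC members lower in FN than in leaf were NAC12, NAC35 and NAC15. NAC12, matched to ANAC047, a factor of waterlogging and petiole movement, had 6 to 447 in FN with a median of 154, against 1120, 510 and 1077 in leaf. The log2 difference was -3.62 ± 0.379 (limma adjusted p = 4.76e-08), with no overlap between FN and leaf, and the EFN values of 342 to 1887 were not called. NAC35, matched to NAC1, a factor of auxin signalling in roots, was lower in both kinds of nectary, with log2 differences of -1.15 in FN (adjusted p = 0.0107) and -1.52 in EFN (adjusted p = 0.00615), and both calls were lost without leaf library 3 (adjusted p = 0.0574 in EFN), the FN call also without leaf library 1 (adjusted p = 0.085 to 0.125 in FN). NAC15's FN difference of -0.45 (adjusted p = 0.0467) was lost when any of 11 libraries was left out, and its mean over stages hides a wide range described below.

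**Figure D3:**
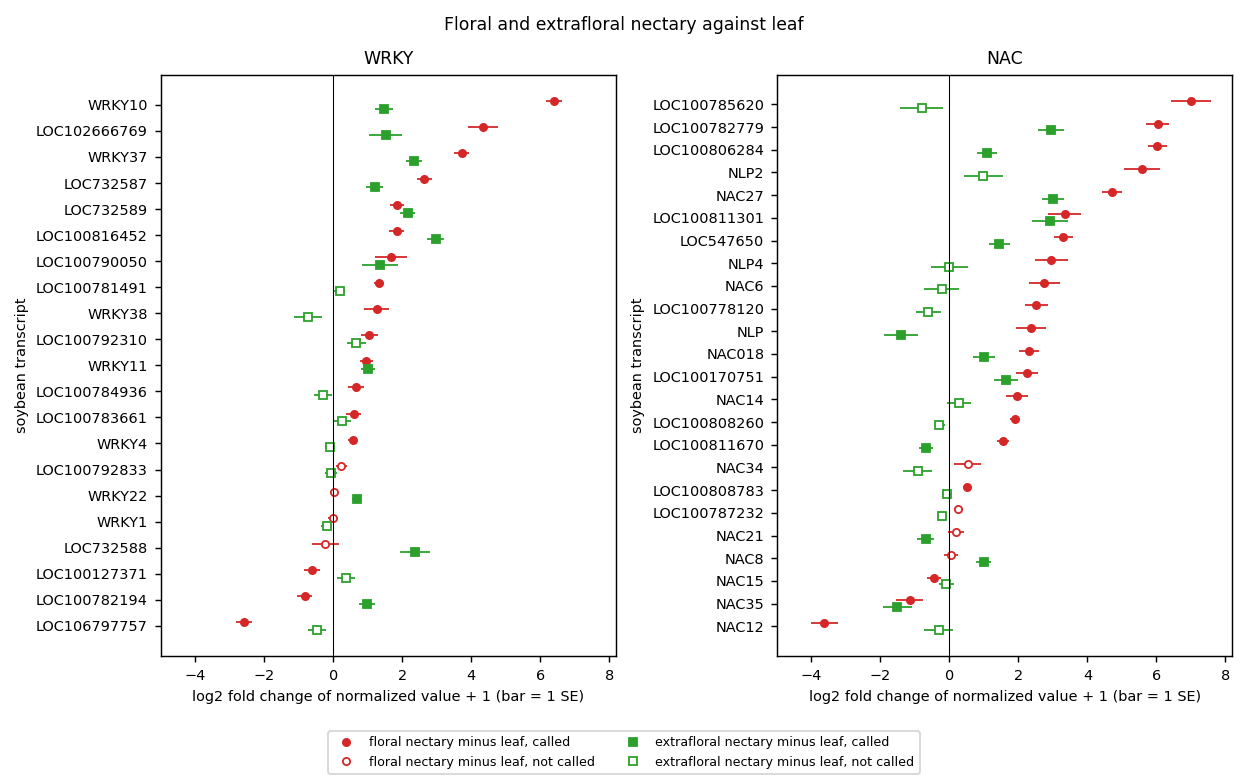
Log2 fold change from leaf of each WRKY (left) and NAC (right) transcript in floral nectaries (red circles, mean of 4 stages) and extrafloral nectaries (green squares, both sites), with 1 SE; filled symbols passed adjusted p below 0.05. Both families reach above 6 in floral nectaries, and LOC100811670, NLP and LOC100782194 carry filled symbols on opposite sides of 0.

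The other WRKY members higher in FN than in leaf covered a range of sizes. LOC102666769, matched to the defence factor WRKY72, had 14 to 73 in FN with a median of 45 and 3 to 7 in EFN, against 6, 0 and 0 in leaf, a log2 difference of 4.34 ± 0.434 in FN (limma adjusted p = 2.5e-08). WRKY38, matched to WRKY12, which restrains wall thickening in the pith, had 25 to 70 in FN and 3 to 19 in EFN, against 18.7 ± 3.79 in leaf, and was higher in FN by 1.26 ± 0.363 (adjusted p = 0.00416). LOC100781491 was higher by 1.32 and LOC100792310, the WRKY39 match, by 1.05. The differences of WRKY4 (0.56) and LOC100784936 (0.65), both matched to WRKY3, were not called once upper quartiles were equalised.

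Of the remaining NAC members higher in FN, NAC14, matched to ANAC041, had 35 to 102 in FN with a median of 64.5 and 8 to 31 in EFN, against 18.3 ± 12.5 in leaf, a log2 difference of 1.96 ± 0.318 (limma adjusted p = 1.54e-05). NAC6, matched to the flowering regulator LOV1, had 5 to 34 in FN and 0 to 6 in EFN, against 1 to 3 in leaf, and was higher in FN by 2.75 ± 0.457 (adjusted p = 2.06e-05). LOC100808783, matched to NAC052, averaged 614 to 898 over the floral stages, against 504 ± 68.7 in leaf, and its difference of 0.51 was not called under either rescaling.

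Secretory FN and EFN both secrete nectar, and the comparison between them shows which members differ between nectary types. In secretory FN, 12 WRKY members were higher than in EFN and 7 lower, and 21 NAC members were higher and 2 lower, beside 72.5% of all transcripts called (43.4% higher and 29.1% lower). A transcript with no value in library 1 of secretory FN is not in the table. These counts and shares are therefore drawn from transcripts present in that tissue, as in the other comparisons with secretory FN. The median log2 difference was 0.58 for WRKY and 2.06 for NAC members, beside 0.26 for all transcripts. With equal upper quartiles the WRKY split was 8 and 7 and the NAC split 19 and 2, while higher calls were 47.9% of all calls in place of 59.8%. The authors' deposited table marks 15 NAC and 11 WRKY members between secretory FN and stem EFN, beside 50.0% of all transcripts, and 18 and 12 between secretory FN and leaf EFN, beside 53.8%. LOC100785620 had 5957, 4923 and 4716 in secretory FN, against 0 to 19 in EFN, a log2 difference of 9.68 ± 0.63 (limma adjusted p = 8.25e-11). LOC100806284 was higher by 6.23 ± 0.297 (adjusted p = 1.1e-12) and LOC100808260, matched to ANAC078, a factor of flavonoid synthesis under strong light, by 2.16 ± 0.167 (adjusted p = 9.8e-10). LOC100808260 averaged 1254 to 1499 over the floral stages, with 306 ± 36.4 in stem EFN and 268 ± 33.5 in leaf EFN.

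WRKY10 was higher in secretory FN than in EFN by 5.00 ± 0.26 (limma adjusted p = 3.52e-12), LOC732587 by 1.74 and LOC100781491, matched first to AT4G26640 and then to WRKY2, by 1.30. Lower in secretory FN were LOC100782194, with a log2 difference of -1.49, WRKY22 with -0.74, LOC732588 with -2.39 and LOC106797757 with -0.84. LOC732588 had 46, 33 and 41 in secretory FN, against 121 to 368 in EFN, without overlap (adjusted p = 7.21e-05). The NAC members lower in secretory FN were NAC8, matched to ATAF1, a factor of abscisic acid signalling, and NAC12. NAC8 averaged 542 ± 118 in secretory FN, against 1200.0 ± 178 in stem EFN and 1852 ± 113 in leaf EFN (SD, n = 3 each), a log2 difference of -1.47 ± 0.223 (adjusted p = 8.21e-06). NAC12's call of -1.09 (adjusted p = 0.0242) was lost without secretory FN library 2 or 3 or stem EFN library 1 (adjusted p = 0.0598 to 0.0778).

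The summed values of 11 transcripts known for rapid wound and touch responses differed between these tissues. They were 3410 to 4424 in secretory FN, 3523 to 7261 in stem EFN and 4016 to 5516 in leaf EFN, against 1839 to 3579 in leaf. Of the 11, 8 were higher and 2 lower in EFN than in leaf, beside 28.9% and 18.5% of all transcripts, and 4 were higher and 3 lower in secretory FN than in EFN, beside 43.4% and 29.1%. WRKY33 and WRKY40 are themselves wound-responsive in Arabidopsis, and the part of handling in their values was not tested. Summed antenna transcripts, which mark green mesophyll, were 25166 to 33115 in stem EFN and 3577 to 5935 in leaf EFN, against 105542 to 134057 in leaf, and their part in the EFN differences was not tested.

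Stem and leaf EFN differed in 1 member of 45. LOC100816452, matched to WRKY23, was lower in stem EFN, with 196, 290 and 217, against 606, 812 and 414 in leaf EFN, without overlap. The log2 difference was -1.34 ± 0.278 (limma adjusted p = 0.00799), and it was lost without leaf EFN library 2 (adjusted p = 0.0688) and with only the libraries compared (adjusted p = 0.0566). The authors' deposited table also marks this transcript as different between the EFN sites, and of the NAC members LOC547650, beside 2.06% of all transcripts. For NAC members limma called 0 of 24, with 7 at an unadjusted p below 0.05, beside 5.37% of all transcripts called (2.80% higher and 2.57% lower).

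**Figure D4:**
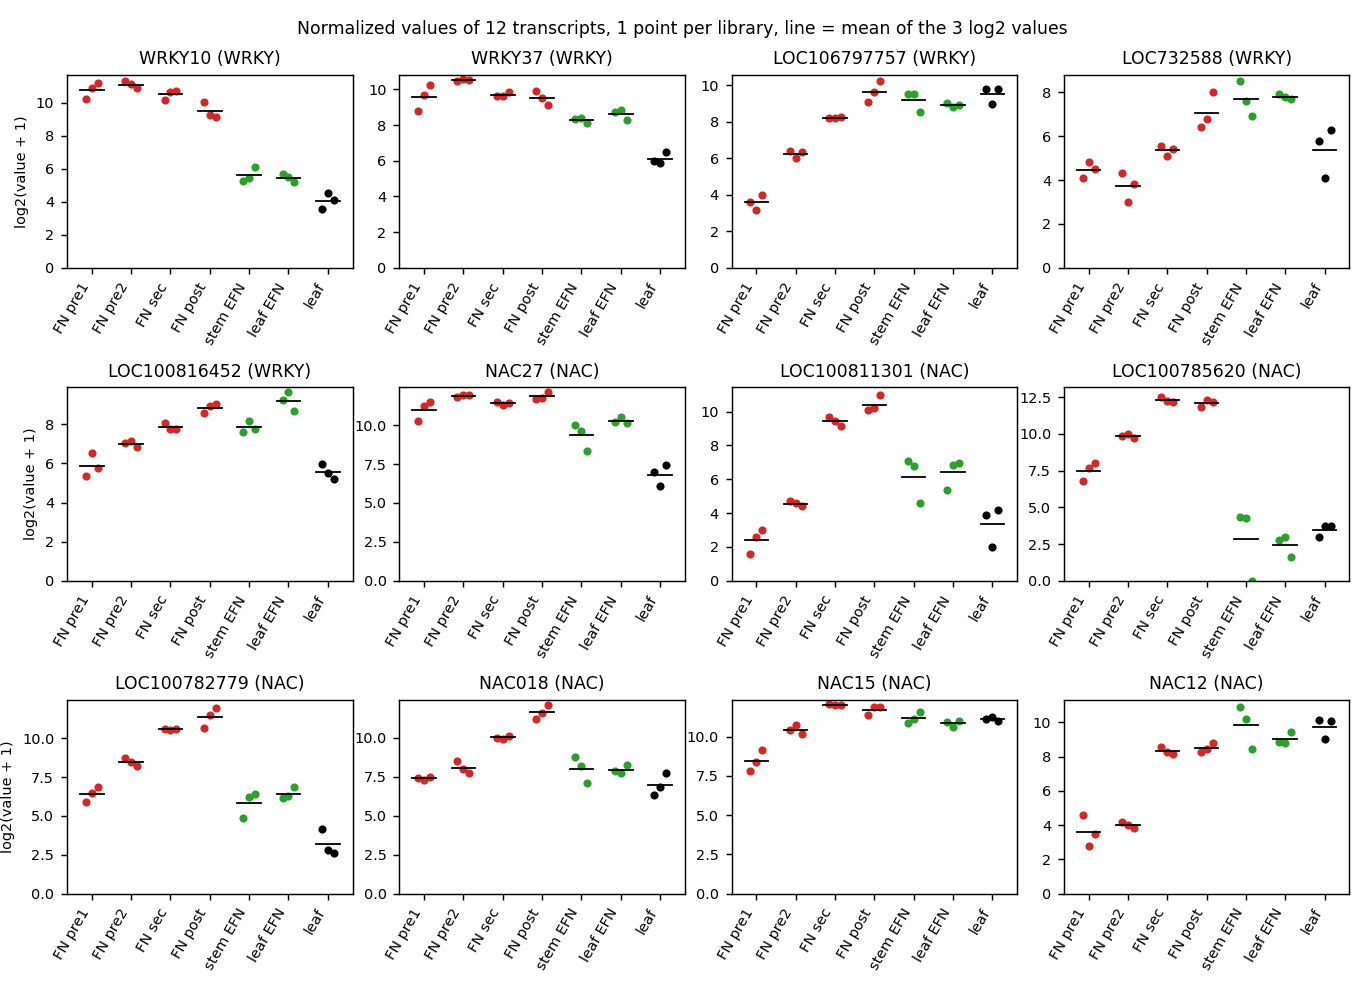
Log2(normalized value + 1) of 12 WRKY and NAC transcripts in every library, with a line at the mean of each tissue's 3 libraries; floral nectaries are red, extrafloral nectaries green and leaf black. LOC100811301, LOC100785620 and LOC100782779 climb from pre1 to secretory floral nectaries, WRKY10 is lowest of the floral stages in post, and NAC12 is near 4 in pre1 and pre2 and above 8 in all other tissues.

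Between neighbouring floral stages, more members of both families were called higher than lower. In pre2, 6 WRKY members were higher than in pre1 and 0 lower, and 7 NAC members were higher and 1 lower, beside 19.5% of all transcripts called (12.4% higher and 7.05% lower). In secretory FN, 5 WRKY members were higher than in pre2 and 2 lower, and 10 NAC members were higher and 1 lower, beside 21.4% (12.6% and 8.77%). In post FN, 3 WRKY members were higher than in secretory FN and 1 lower, and 3 NAC members were higher and 0 lower, beside 5.73% (2.63% and 3.10%). With equal upper quartiles higher calls in pre2 were 50.2% of all calls in place of 63.8%, with 5 WRKY members higher and 1 lower and 7 and 1 NAC members. In post FN they were 54.8% with median ratios in place of 45.9%, with 4 and 0 WRKY members and 3 and 0 NAC members. LOC100783661 and WRKY37 were called higher at one step and lower at another. Across the 4 stages limma's F test called 11 WRKY members and 19 NAC members, beside 57.0% of all transcripts. The authors' deposited table marks 11 NAC members and 6 WRKY members between pre1 and pre2, beside 18.9% of all transcripts. It marks 16 NAC members (66.7%) and 9 WRKY members (42.9%) between pre2 and secretory FN, beside 29.9%, and 3 and 4 between secretory and post FN, beside 9.86%. Without pre1 library 1 the calls in pre2 were 2 WRKY and 5 NAC members, beside 617 of all transcripts in place of 1237. Without post library 3 the calls in post FN were 1 and 1, beside 136 of all transcripts in place of 364. With any 1 library left out the WRKY calls in secretory FN against pre2 were 2 to 4 in place of 7. All transcripts called there were 833 to 1056 in place of 1357.

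Over 2 steps, 9 WRKY members were higher in secretory FN than in pre1 and 2 lower, and 13 NAC members were higher and 3 lower, beside 45.9% of all transcripts called (25.2% higher and 20.7% lower). In post FN, 6 WRKY members were higher than in pre2 and 2 lower, and 11 NAC members were higher and 3 lower, beside 38.2% (18.1% and 20.1%). The split of all calls turned with the scaling in both comparisons. For secretory against pre1, 1602 transcripts were higher and 1315 lower, but 1454 and 1591 with equal upper quartiles, where the WRKY split was 7 and 3 and the NAC split 13 and 4. For post against pre2, 1147 were higher and 1278 lower, but 1348 and 1111 with median ratios, where the WRKY split was 6 and 2 and the NAC split 12 and 3. The median log2 difference of NAC members was 1.13 and 0.80 in these comparisons, and that of WRKY members 0.45 and 0.19, beside 0.00 and -0.07 for all transcripts.

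**Figure D5:**
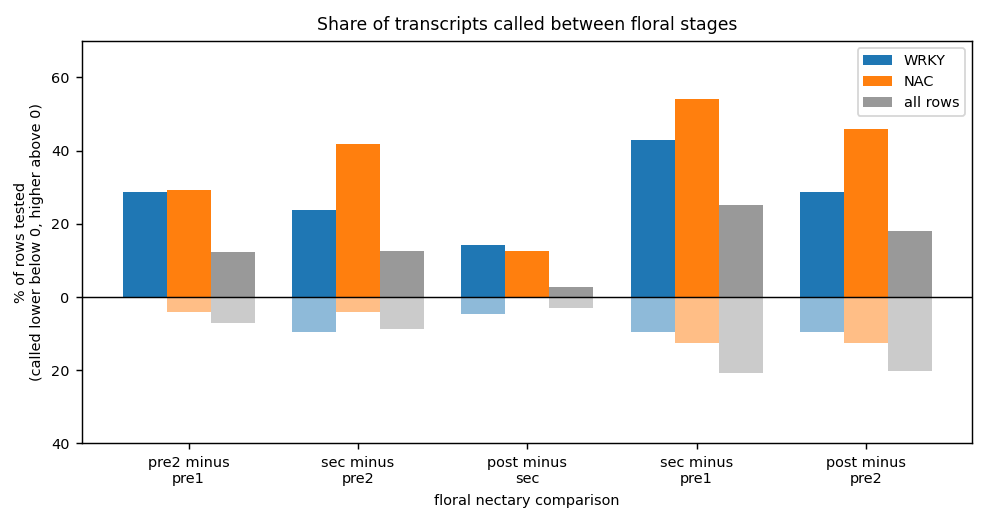
Percentage of WRKY members, NAC members and all tested transcripts called higher (above 0) or lower (below 0) in the later of 2 floral stages. The NAC bar for secretory against pre2 stands for 10 of 24 members called higher, beside 12.6% of all transcripts.

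LOC106797757, the WRKY33 match, rose at every stage. Its values were 11, 8 and 15 in pre1, 84, 63 and 80 in pre2, 289, 293 and 299 in secretory and 538, 797 and 1194 in post FN, with no overlap between neighbouring stages. The log2 steps were 2.66 ± 0.299 (limma adjusted p = 9.61e-06), 1.95 ± 0.299 (adjusted p = 0.000122) and 1.44 ± 0.299 (adjusted p = 0.00647), and the last was lost without post library 3 (adjusted p = 0.0609). LOC732589, the WRKY7 and WRKY11 match, averaged 64.3 ± 26.9 in pre1, 215 ± 34.9 in pre2, 518 ± 41.1 in secretory and 495 ± 41.4 in post FN. It rose by 1.79 ± 0.244 in pre2 (adjusted p = 6.28e-05) and by 1.27 ± 0.244 in secretory FN (adjusted p = 0.00101). LOC100816452, the WRKY23 match, had 40, 91 and 53 in pre1, 132, 139 and 114 in pre2, 264, 215 and 218 in secretory and 383, 489 and 527 in post FN. It was called at all 3 steps, but only the differences over 2 steps of 1.98 (secretory against pre1) and 1.85 (post against pre2) held in every alternative setting.

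LOC100783661, matched to WRKY6, a regulator of senescence and phosphate transport, rose in post FN. It averaged 187 ± 65.9 in pre1, 181 ± 11.7 in pre2, 103 ± 10 in secretory and 480 ± 159 in post FN, a rise of 2.16 ± 0.28 on the log2 scale in post against secretory FN (limma adjusted p = 0.000138). The secretory library values were below both neighbours, though the fall from pre2 (adjusted p = 0.0461) was lost on leaving out any 1 of 6 libraries. LOC732588, the WRKY40 match, had 16, 27 and 22 in pre1, 19, 7 and 13 in pre2, 46, 33 and 41 in secretory and 84, 109 and 259 in post FN, 3.36 ± 0.505 higher in post than in pre2 (adjusted p = 4.02e-05). LOC100790050, matched to the senescence regulator WRKY53, was near the lower end of the scale, with 0 to 17 in FN. It was higher in secretory FN than in pre2 by 2.16 ± 0.601 (adjusted p = 0.0149), a call lost without pre2 library 3 or secretory library 2 (adjusted p = 0.0722 to 0.11), and than in pre1 by 3.36 ± 0.601 (adjusted p = 0.00017).

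WRKY10 and WRKY37 ran the other way. WRKY10 was lower in post FN than in secretory FN, at a log2 difference of -1.04 ± 0.3 (limma adjusted p = 0.0461), a call lost without any 1 of 5 libraries, and lower in post than in pre2, at a log2 difference of -1.62 ± 0.3 (adjusted p = 0.000332), which held in every alternative. WRKY37 averaged 822 ± 383 in pre1, 1491 ± 60.2 in pre2, 829 ± 72.6 in secretory and 753 ± 209 in post FN, and was lower in post than in pre2, at a log2 difference of -1.02 ± 0.274 (adjusted p = 0.00626). LOC100792833, matched to WRKY2, which acts in zygote and pollen development, averaged 85.0 ± 8.72 in pre1, 115 ± 10.7 in pre2, 158 ± 31.4 in secretory and 179 ± 4.73 in post FN, and was higher in secretory FN than in pre1 by 0.87 ± 0.208 (adjusted p = 0.00212). WRKY11, which lists the same first locus as WRKY37, was instead highest in secretory FN, with 510 ± 52.1, against 220 ± 83.0 in pre1, a rise of 1.28 ± 0.246 (adjusted p = 0.000338).

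Called at no step were 11 WRKY members, among them matches of WRKY2, WRKY3, WRKY12, WRKY17, WRKY21, WRKY32, WRKY39 and WRKY72. The share of all transcripts called at no step was not counted, so whether this sets the family apart cannot be told. At the single steps 19.5%, 21.4% and 5.73% of all transcripts were called. WRKY1, matched to AT4G26640, passed no test: it averaged 244 to 315 over the floral stages, with 234 in stem EFN and 265 in leaf EFN, against 287 in leaf. WRKY4 and LOC100784936, both matched to WRKY3, ranged between means of 343 and 464 and of 358 and 546 over the floral stages. WRKY4 was higher in secretory FN than in pre1 by 0.44 (limma adjusted p = 0.0386), a call lost without any 1 of 5 libraries. The authors' deposited table marks LOC100784936 and LOC100792833 between pre2 and secretory FN, and LOC100792310 between pre1 and pre2, beside 29.9% and 18.9% of all transcripts.

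NAC15, the NAC member with the highest mean over the libraries, matches AT5G13180, VNI2, a partner of the xylem regulator VND7 that also links salt and abscisic acid signals to leaf ageing. Its values were 229, 335 and 568 in pre1, 1358, 1701 and 1157 in pre2, 4435, 4139 and 4115 in secretory and 2683, 3768 and 3747 in post FN, with no overlap between pre1, pre2 and secretory libraries. It rose by 1.98 ± 0.252 in pre2 (limma adjusted p = 3.26e-05) and by 1.61 ± 0.252 in secretory FN (adjusted p = 0.000162). Secretory FN was also above the EFN libraries, which held 1605 to 3018, by 1.02 ± 0.219 (adjusted p = 0.000363).

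At the secretory stage the NAC members with the smallest adjusted p against pre2 were NAC12, LOC100806284 and LOC100811301. LOC100811301, the second ANAC055 match, had 2, 5 and 7 in pre1, 25, 23 and 20 in pre2, 825, 710 and 559 in secretory and 1071, 1188 and 1995 in post FN. Secretory FN exceeded pre2 by 4.87 ± 0.603 (limma adjusted p = 1.2e-05) and pre1 by 7.04 ± 0.603 (adjusted p = 3.65e-08). NAC12, the ANAC047 match, had 23, 6 and 10 in pre1, 17, 15 and 13 in pre2, 373, 310 and 286 in secretory and 309, 343 and 447 in post FN. Its step at secretion was 4.34 ± 0.48 (adjusted p = 3e-06), and in pre1 and pre2 it lay far under the EFN and leaf libraries. LOC100806284, the NAC074 match, had 190, 228 and 274 in pre1, 176, 139 and 177 in pre2, 1692, 1703 and 930 in secretory and 1336, 2456 and 2456 in post FN, a step of 3.08 ± 0.343 at secretion (adjusted p = 3.21e-06).

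LOC100785620 and LOC100782779 rose both in pre2 and in secretory FN. LOC100785620, the NAC100 match, had 112, 205 and 257 in pre1, 936, 1035 and 856 in pre2, 5957, 4923 and 4716 in secretory and 3730, 5142 and 4716 in post FN, without overlap up to the secretory stage. Secretory FN exceeded pre1 by 4.83 ± 0.728 (limma adjusted p = 2.84e-05), while the single steps of 2.37 and 2.46 were lost without any 1 of 5 and of 4 libraries. LOC100782779, the SND3 match, had 58, 87 and 115 in pre1, 432, 364 and 299 in pre2, 1590, 1486 and 1539 in secretory and 1620, 2958 and 4060 in post FN. Its steps of 2.10 ± 0.424 (adjusted p = 0.00194) and 2.09 ± 0.424 (adjusted p = 0.00164) held in every alternative.

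Of the floral stages, post had the highest mean for all 4 NAC members matched to the ATAF group, which in Arabidopsis answers drought, wounding and abscisic acid, as for 26.6% of all transcripts. Only NAC018 and NAC8 of these 4 were called higher in post than in secretory FN. NAC018, matched to ANAC102 and ATAF2, had 167, 157 and 181 in pre1, 364, 254 and 209 in pre2, 1014, 975 and 1125 in secretory and 2382, 3110 and 4444 in post FN. Post exceeded secretory FN by 1.63 ± 0.36 (limma adjusted p = 0.00957), a call lost without post library 3 (adjusted p = 0.081), and pre2 by 3.57 ± 0.36 (adjusted p = 5.24e-07). Of the 3 ATAF1 matches, NAC21 averaged 315 ± 133, 950.3 ± 67.9, 1325 ± 229 and 1422 ± 147 over the 4 stages, and LOC100170751 averaged 32.0 ± 11.5, 81.3 ± 9.07, 241 ± 48.0 and 453 ± 187. NAC8, the third, averaged 598 ± 158, 853 ± 110, 542 ± 118 and 1416 ± 583, and its rise of 1.32 ± 0.258 in post against secretory FN (adjusted p = 0.00433) held in every alternative. LOC100787232, matched to VNI1 (NAC082) and NAC017, rose in post FN by 0.64 (adjusted p = 0.0251), a call lost without any 1 of 4 libraries.

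In post FN the libraries differed among themselves, and members went both ways. Library 3 was the highest of the post libraries for NAC018, LOC106797757, LOC732588, LOC100782779 and LOC100811301, among others. It was the lowest of them for others, among them WRKY10, WRKY37, LOC732587, WRKY11, LOC100784936, LOC100811670 and LOC100808260. The summed wound and touch transcripts were 5425, 8381 and 12362 in post libraries 1, 2 and 3, against 3410 to 4424 in secretory FN. Of these 11 transcripts 3 were higher in post than in secretory FN and 0 lower, beside 2.63% and 3.10% of all transcripts. In post against pre2, 9 were higher and 0 lower, beside 18.1% and 20.1%. In secretory FN against pre2, 5 were higher and 0 lower, beside 12.6% and 8.77%. Their part in the post differences was not tested.

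Some NAC members were lower in later floral stages than in pre1 or pre2. LOC100778120, matched to LOV1 (NAC035), which delays flowering in Arabidopsis, averaged 211 ± 17.7 in pre1, 51.7 ± 1.53 in pre2, 59.7 ± 5.69 in secretory and 93.0 ± 32.2 in post FN, a log2 difference of -2.01 ± 0.432 between pre2 and pre1 (limma adjusted p = 0.00307). NAC35 and NAC34, both matched to NAC1, which miR164 also targets, were lower in secretory FN than in pre1, at log2 differences of -1.94 ± 0.485 (adjusted p = 0.00308) and -1.62 ± 0.484 (adjusted p = 0.0104). NAC35 averaged 315 ± 42.5 in pre1, 173 ± 33.0 in pre2, 82.7 ± 18.9 in secretory and 62.0 ± 18.5 in post FN. LOC100811670, the ANAC056 match, averaged 3210.3 ± 676, 3827 ± 164, 2279 ± 163 and 2061 ± 371 over the stages and was lower in post than in pre2, at a log2 difference of -0.91 ± 0.228 (adjusted p = 0.00401).

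Transcripts of processes that these families are known to control were followed beside them. Of 8 senescence transcripts, 6 were higher in pre2 than in pre1, 2 in secretory than in pre2, 0 in post than in secretory FN, and none was lower at any of these steps, beside 12.4%, 12.6% and 2.63% of all transcripts higher. EN1, matched to bifunctional nuclease 1, which degrades nucleic acids in dying cells, averaged 3.33, 19.7, 2577 and 7188 over the stages, with 6.33 in stem EFN and 12.0 in leaf EFN, against 13.0 in leaf. LOC547566, matched to SAG21, averaged 337, 4117, 7418 and 4006 over the stages, with 1539 in stem EFN and 1613 in leaf EFN, against 734 in leaf. Of the 2 secondary wall and xylem transcripts, LOC100781510, matched to METACASPASE 9, a protease of xylem cell death, averaged 13.0, 137, 5195 and 4311 over the stages, with 2.67 or less in EFN, and was higher in secretory FN than in pre2 by 5.26 ± 0.395 (limma adjusted p = 3.74e-08). The list's only wall synthesis transcript, LOC100804687, matched to a cellulose synthase, was not called at any step.

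Transcripts of WRKY signalling partners, of salicylic acid and defence, and of organ boundaries were counted in the same way. Of 6 transcripts for MAP kinase cascade and VQ proteins, 2 were higher and 1 lower in EFN than in leaf, beside 28.9% and 18.5% of all transcripts, and 2 were higher and 0 lower in FN than in leaf, beside 48.0% and 27.8%. In secretory FN against EFN 2 were higher and 2 lower, beside 43.4% and 29.1%. Of 7 salicylic acid and defence transcripts, 1 was higher and 0 lower in EFN than in leaf, and 2 were higher and 3 lower in FN than in leaf, beside the same shares of all transcripts. PAD4, a lipase-like partner of EDS1, was higher in EFN than in leaf by 1.05 ± 0.214 (limma adjusted p = 0.000566) and lower in FN than in leaf, at a log2 difference of -0.87 ± 0.195 (adjusted p = 0.000507). In the organ boundary list, which stands beside CUC and NAC100, 6 of 6 transcripts were higher in FN than in leaf, beside 48.0% of all transcripts, and 4 were higher and 1 lower in EFN, beside 28.9% and 18.5%. In post FN 2 were lower than in secretory FN and 4 lower than in pre2, with 0 higher, beside 3.10% and 20.1% of all transcripts lower. In FN against leaf the leading ones were KNOX homeobox genes, which keep meristem cells undifferentiated, such as H1, 9.81 ± 0.308 higher in FN (adjusted p = 9.97e-16).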

How the data were processed

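RNA of 7 common bean tissues, 3 libraries each, was sequenced as Illumina TruSeq paired-end reads, per the labels' protocols. The authors made 1 deposited table of upper-quartile normalized values on soybean transcripts, a score rounded to whole numbers, per the file headers. These are not read counts, so no count model was used. DESeq is listed by the submitters' processing notes without its use or version, and the table carries the authors' calls for 6 comparisons. The aligner is not given in the sources used here.

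Values were tested with limma 3.58.1 in R 4.3.3 on log2(value + 1), with an intensity trend and 7 tissue means over all 21 libraries (14 residual degrees of freedom). Transcripts with a mean of at least 1 entered (6351 of 6359), and p-values were adjusted by Benjamini-Hochberg over all of them. The members, gene lists and comparisons were chosen with earlier results of these data known. Every member could be named. Fullest values were given for the 4 members per family with the highest means and, per comparison, for up to 3 higher and 3 lower members with the smallest adjusted p, and ranges or means for the others. Alternatives were other scalings, pseudocounts of 0.5 and 10, a minimum mean of 10, no minimum, no trend, a replicate block, only the libraries compared, each library left out, and, added after the data were seen, stem EFN libraries 2 and 3 left out. The script was tested on simulated data. No sequence tables or genome were used here.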

Additional observations from a re-analysis of the deposited data

Results flagged for a closer look

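LOC100811670, the ANAC056 match, was called higher in FN than in leaf (1.55) and lower in EFN than in leaf (-0.68), and the difference between these effects, tested as a contrast, was 2.23 ± 0.14 on the log2 scale (limma adjusted p = 1.99e-11). NLP, a NAC100 match, showed 2.36 and -1.40, a difference of 3.77 ± 0.345 (adjusted p = 5.76e-09), with values of 0 to 2 in EFN and 1 to 7 in leaf. LOC100782194, the WRKY32 match, ran the other way, with -0.83 in FN and 0.98 in EFN, a difference of -1.81 ± 0.162 (adjusted p = 3.73e-09). Both effects share the leaf libraries, and each difference equals that between FN and EFN. These members were picked because the same values gave opposite calls, so the adjusted p-values of the differences add no support. The EFN calls of LOC100811670 and NLP were lost on leaving out single libraries, as given above. LOC100816452, the WRKY23 match, had higher values than leaf at both EFN sites and was lower in stem EFN than in leaf EFN, at a log2 difference of -1.34 ± 0.278 (adjusted p = 0.00799). That call too was lost on leaving out a single library, as given above.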

How the results depend on the processing

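Of 221 called member results, 161 held in every alternative run, 54 were lost on leaving out 1 library and 32 under another alternative, some under both, and 64 of 229 results not called were called in one. Fitting only the libraries compared gave 0 WRKY calls (1 in the fit reported) and 66 of all transcripts (341) between stem and leaf EFN, and 14 NAC calls (8) between pre2 and pre1. In the fit reported 1237 of all transcripts were called between pre2 and pre1, and their count in this setting is not given here. The same setting gave 12 WRKY (7), 18 NAC (11) and 2691 of all transcripts (1357) between secretory and pre2 FN, and 7 WRKY (4) and 679 of all transcripts (364) between post and secretory FN. Without the intensity trend post against secretory FN had 2 WRKY calls (4). The count of all transcripts in that setting is not given here, so a change of the family cannot be told from a general one. Leaving out stem EFN libraries 2 and 3 leaves 1 stem EFN library, so no count of calls is given for it. WRKY22 in FN against leaf, 0.01 in the fit reported, was -0.26 with median ratios (limma adjusted p = 0.0297) and -0.39 with equal upper quartiles (adjusted p = 0.00223). The cause was not tested for any of these.

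With 1 library left out at a time, stem against leaf EFN had 0 to 1 WRKY, 0 to 2 NAC and 100 to 547 of all transcripts called. Pre2 against pre1 had 2 to 7 WRKY, 5 to 10 NAC and 617 to 1338 of all transcripts. Secretory against pre2 had 2 to 4 WRKY, 8 to 11 NAC and 833 to 1056 of all transcripts. Post against secretory had 1 to 5 WRKY, 1 to 3 NAC and 136 to 604 of all transcripts. Secretory against pre1 had 7 to 9 WRKY members (11 in the fit reported) and 2362 to 2740 of all transcripts (2917). A tissue left with fewer libraries is assumed to vary like the others.

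The replicate numbers did not pair the libraries: of 63 same-numbered pairs, 5 had deviations correlated above 0.1 (range -0.255 to 0.189), and 3 of 21 libraries correlated best with their own number. With the replicate block, 4 called member results were lost and 3 gained, and no count of calls moved by over 1.5 times. Depth is unknown, so no limit of detection can be given, and members near 0 such as LOC100790050, NLP, NLP4 and NAC6 are the least certain.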
